A study of Mus musculus with 2 samples.

Results

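The late neutrophil granule and calprotectin genes are 7 genes taken by symbol from the gene list of the count files: S100a8, S100a9, Ltf, Camp, Ngp, Fcnb and Lcn2. They are 7 of 31053 gene entries, and each symbol stood once in the list. Bone marrow cells sorted as Lin- Kit+, which are progenitors that lack mature lineage antigens and carry the Kit receptor, were profiled by droplet 3′ single-cell RNA sequencing. The series holds 1 library from wild-type mice (WT) and 1 from mice that carry a GATA-1 knock-in mutation, named 2RA in the series title (KI). The labels give no strain, age, sex, number of pooled animals or treatment. The submitters set out to see how marrow cell types and their gene regulation differ with the mutation.

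A neutrophil fills its granules in waves as it matures. Primary granule proteins such as Mpo and Elane are made at the promyelocyte stage, and specific granule proteins such as lactoferrin, cathelicidin and lipocalin 2 at the myelocyte and metamyelocyte stages, under factors of the C/EBP family. S100A8 and S100A9 pair as calprotectin, a calcium- and metal-binding complex that fills the cytosol of mature neutrophils and is also made by monocytes. Kit is lost as neutrophils mature, so a Kit+ sort is expected to hold the earlier stages of this path.

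Calprotectin is encoded by neighbours. S100a8 (ENSMUSG00000056054) lies on mm10 at chr3:90668978-90670035, plus strand, and S100a9 (ENSMUSG00000056071) at chr3:90692632-90695721, minus strand, 22596 bases away. On chromosome 9 lie Camp (ENSMUSG00000038357, chr9:109847379-109849617, minus strand), Ngp (ENSMUSG00000032484, chr9:110419747-110423012, plus strand) and Ltf (ENSMUSG00000032496, chr9:111019271-111042767, plus strand). Fcnb (ENSMUSG00000026835, chr2:28076378-28084885, minus strand) and Lcn2 (ENSMUSG00000026822, chr2:32384633-32388252, minus strand) lie on chromosome 2. All 7 are annotated as protein coding in GENCODE M21.

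The sequences before 4 of these genes are shown for their short matches to letters of the type that C/EBP factors bind. They are read 5′ to 3′ on the gene's strand from RefSeq windows of GRCm38.p6, leaving out bases inside the GENCODE gene. Capitals mark TTNNGCAA or TGNNGCAA on either strand.
S100a8, chr3:90668821-90668977, plus strand: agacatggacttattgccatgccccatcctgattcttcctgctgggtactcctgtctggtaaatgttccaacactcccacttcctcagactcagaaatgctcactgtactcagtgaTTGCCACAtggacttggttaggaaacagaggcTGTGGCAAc
S100a9, chr3:90695722-90695921, minus strand: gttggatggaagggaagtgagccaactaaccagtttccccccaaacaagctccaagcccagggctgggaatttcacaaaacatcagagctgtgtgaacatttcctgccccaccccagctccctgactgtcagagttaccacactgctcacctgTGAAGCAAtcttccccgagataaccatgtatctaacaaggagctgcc
Ltf, chr9:111019071-111019270, plus strand: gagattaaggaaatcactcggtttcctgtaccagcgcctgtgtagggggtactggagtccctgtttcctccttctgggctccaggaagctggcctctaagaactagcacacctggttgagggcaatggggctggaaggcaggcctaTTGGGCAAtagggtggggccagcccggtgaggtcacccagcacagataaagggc
Fcnb, chr2:28084886-28085085, minus strand: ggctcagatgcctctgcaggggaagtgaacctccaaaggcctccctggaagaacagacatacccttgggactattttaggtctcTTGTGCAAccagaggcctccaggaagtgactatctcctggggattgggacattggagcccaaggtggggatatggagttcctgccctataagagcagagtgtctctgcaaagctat

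RefSeq windows were found for 7 of 7 genes. In the 250 bases before the RefSeq start, TTNNGCAA was found on either strand for 5 of the 7 genes (S100a9, Ltf, Ngp, Fcnb and Lcn2), against 9.56% of 32851 mouse windows. TGNNGCAA was found for S100a8, S100a9 and Camp, against 9.59% of windows. Either form was found for 7 of 7 genes, against 18.1% of windows. For Lcn2 the whole window, and for Camp all matches, lay inside the GENCODE gene. The second form was added after the members' windows had been seen. GATAA, a form of the letters that GATA factors bind, was found for S100a9 and Ltf, against 22.6% of windows. GAGGAA, a PU.1-type form, was found for S100a8, Ltf and Lcn2, against 23.3%. Such matches describe the letters and do not show binding.

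The files held 7471 WT and 6640 KI barcodes, of which 10 sequences occur in both libraries. After filters on genes, UMIs, mitochondrial share and doublets, 5489 WT and 5500 KI cells were kept, and their median depth was 9635 and 5272.5 UMIs. A UMI marks 1 captured RNA molecule, and CPM scales a gene's UMIs to a total of 1000000 UMIs of the same cells. Levels are 3′ UMI counts and were not divided by gene length. No genotype has a second library, so no difference was tested, and every interval below is at the 95% level and reflects counting error alone. Cells were clustered without the 7 genes and without the other neutrophil lists used here. The cluster called neutrophil progenitor resembled that type by its markers, 9 of 9 of which were detected, among them Elane, Gfi1 and Cebpe. It held 461 WT and 140 KI cells. Monocyte progenitor markers summed to 807 CPM in WT and 742 CPM in KI there, basophil and mast markers to 258 and 229 CPM and erythroid markers to 112 and 85.8 CPM. T and NK cell markers summed to 975 and 954 CPM, nearly all from Nkg7, and stem and multipotent markers to 60.1 and 89.5 CPM. Markers of mature neutrophils summed to 48.0 CPM in WT and 106 CPM in KI, or 34.6 CPM in KI without 3 barcodes described below.

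Most of the RNA of these genes came from few cells, and in the KI library from 3. Over all kept WT cells, 663 held at least 1 S100a8 UMI, 24 cells held 50% of the 7295 S100a8 UMIs and 164 cells held 90%. Over all kept KI cells, 87 held S100a8, 2 cells held 50% of the 1393 UMIs and 8 cells held 90%. For S100a9 the sums were 1030 UMIs from 151 WT cells and 1510 UMIs from 40 KI cells. Of these, 5 WT cells and 2 KI cells held 50%. A single KI barcode gave 698 S100a9 UMIs, and the highest WT cell gave 197.

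The specific granule genes were rarer still. Ltf, the iron-binding lactoferrin, had 2 UMIs in 2 WT cells and 60 UMIs in 4 KI cells. Camp, which encodes the antimicrobial peptide precursor cathelicidin, had 41 UMIs in 32 WT cells and 239 in 8 KI cells. Ngp, a cystatin-related granule protein, had 11 UMIs in 11 WT cells and 218 in 5 KI cells. The WT UMIs of these genes were spread thinly, at most 6 in a cell, whereas 2 KI cells held 57 of the 60 Ltf, 233 of the 239 Camp and 215 of the 218 Ngp UMIs.

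Lcn2, lipocalin 2, which binds bacterial iron carriers, was spread over many WT cells. Its 309 UMIs came from 266 cells, 112 cells held 50% and no cell held more than 3. The KI library held 129 Lcn2 UMIs in 42 cells, 51 of them in 1 cell. Fcnb, ficolin B, a lectin that recognises sugars on microbes, had 147 UMIs in 93 WT cells and 12 UMIs in 11 KI cells. It was the member with no UMI in the 3 KI barcodes described next.

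**Figure D1:**
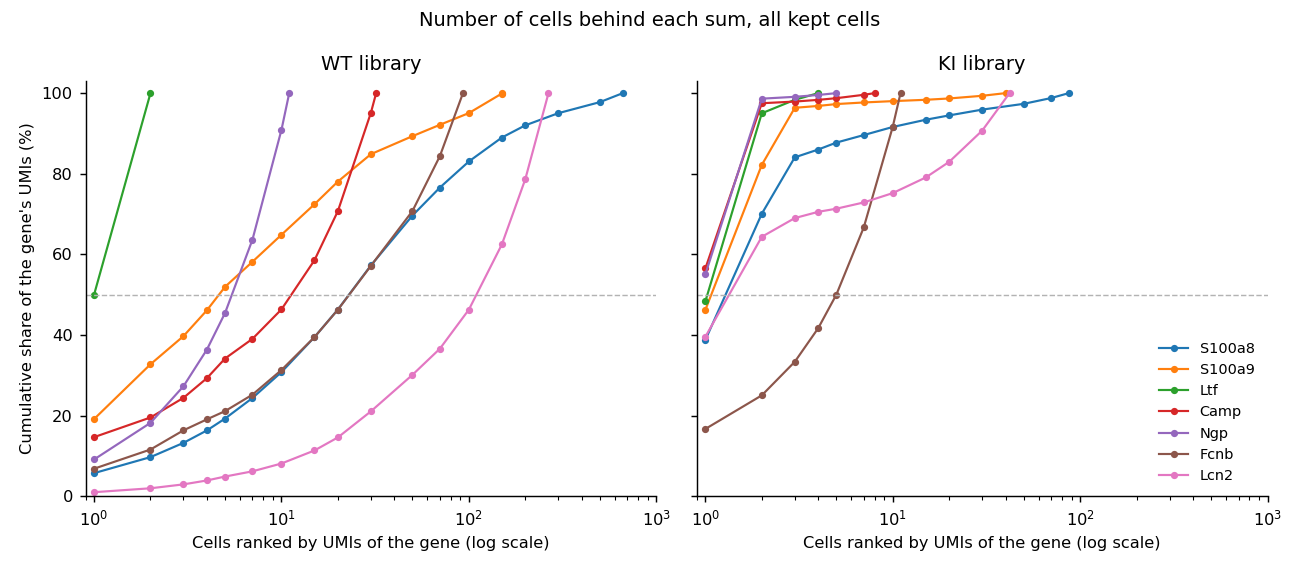
Cumulative share of each gene's UMIs (vertical, percent) against cells ranked by their UMIs of that gene (horizontal, log scale), for all kept cells of each library. The dashed line marks 50%, which S100a8 reached at 24 WT and 2 KI cells. For Fcnb in KI, 5 cells were needed.

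In 3 KI barcodes the 7 genes made up 56.9%, 50.3% and 32.5% of all UMIs. The next KI barcode stood at 0.440%, and the highest WT barcodes at 7.52%, 4.36% and 4.06%. A limit of 10%, set after these values were seen, therefore separated 3 KI and 0 WT barcodes, also among all deposited barcodes. They held 2698, 2523 and 1278 UMIs, 700, 781 and 529 genes, and 0.259%, 0.396% and 0.0782% mitochondrial UMIs. Their genes per cell lie under the 1000 of the stricter cell filter, which removes them.

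S100a8 gave 540, 436 and 195 UMIs in these 3 barcodes, and S100a9 gave 698, 543 and 214. The first and second also held Ltf (28 and 29 UMIs), Camp (98 and 135) and Ngp (120 and 95), all of which were at 0 in the third. Lcn2 gave 51, 32 and 6 UMIs. The third instead held 80 UMIs of Retnlg, a resistin-like gene of mature neutrophils, against 2 and 0 in the others. The 3 thus differed in Ltf, Camp and Ngp, found in the first and second, and in Retnlg, highest in the third. Of 13 other specific granule genes 8, 10 and 8 were detected in them, with 81, 87 and 31 UMIs.

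Primary granule RNA was nearly missing from all 3. Elane and Mpo gave 0 UMIs in each, and Prtn3 gave 0, 1 and 0. Elane was found in each of the other 137 KI cells of the class and was missing from 1 of 461 WT cells. Kit, the receptor used for the sort, gave 0, 0 and 1 UMI, and Ly6g, a surface antigen of mature neutrophils, gave 1, 1 and 0. Markers of stem, megakaryocyte, B, T and macrophage cells were at 0 in all 3. Of the 9 neutrophil progenitor markers 4, 4 and 0 were detected, with 9, 4 and 0 UMIs. Monocyte progenitor markers gave 4, 4 and 0 UMIs. Lymphoid-primed, basophil and mast, eosinophil and erythroid markers gave at most 2 UMIs per list in any of the 3. Of the 9 mature neutrophil markers 4, 3 and 5 were detected, with 7, 5 and 86 UMIs. How these barcodes passed the sort was not tested.

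The 24 WT cells that held 50% of the S100a8 UMIs looked different. All 24 lay in the neutrophil progenitor class, with 84 to 416 S100a8 UMIs (median 136), and the 7 genes made up 0.793% to 7.52% of their UMIs. All 24 held Elane (at least 86 UMIs, median 233) and Mpo, and 13 held Kit. S100a9 was found in 23, Fcnb in 16, Camp in 8, Lcn2 in 6, and Ltf and Ngp in 0. The 1 WT cell of the class without Elane held 0 S100a8 UMIs.

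**Figure D2:**
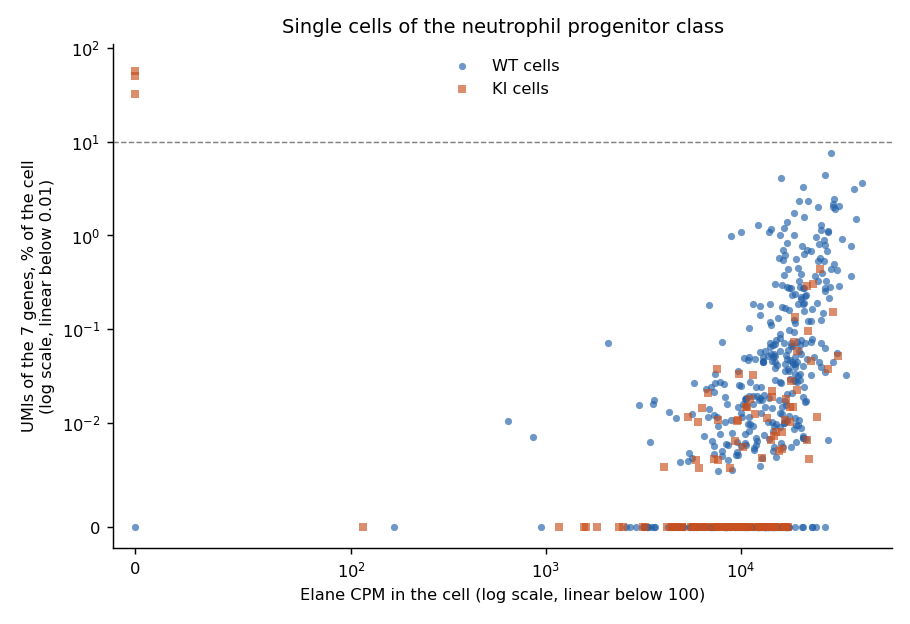
Single cells of the neutrophil progenitor class: share of the cell's UMIs from the 7 genes (vertical, log scale, linear below 0.01%) against Elane CPM (horizontal, log scale, linear below 100), 461 WT and 140 KI cells. The 3 KI barcodes above the dashed 10% line have no Elane UMI, while the WT cells with the highest shares, up to 7.52%, lie at high Elane.

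By class, the neutrophil progenitors held 89.3% of WT S100a8 UMIs in 8.40% of the WT cells, and 95.05% of KI S100a8 UMIs. WT S100a8 stood at 1336 CPM (1304 to 1369) there, at 38.2 CPM (34.8 to 41.8) in monocyte progenitors and at 20.7 CPM (15.4 to 27.2) in stem and multipotent cells. It stood at 9.67 CPM in lymphoid-primed and 3.12 CPM in erythroid cells. The intervals of these 5 classes, in the order given, did not overlap between neighbours. The other named classes fell among them: megakaryocyte cells stood at 12.5 CPM (7.83 to 18.9), which overlaps the stem and lymphoid-primed intervals. Basophil and mast cells stood at 7.72 CPM (3.53 to 14.7), which overlaps the lymphoid-primed and erythroid intervals. The stem, lymphoid-primed and erythroid values came from 51, 58 and 72 UMIs in 489, 726 and 975 cells. Of the erythroid UMIs, 44 lay in the 971 WT cells of the main WT erythroid cluster, at 1.91 CPM (1.39 to 2.57). The rest came from 3 and 1 WT cells of the other erythroid clusters. Median depths there were 4552, 7896.5 and 23200 UMIs, and at equal UMIs per cell CPM falls as depth rises. The part of free RNA in these values was not tested.

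S100a9 followed another order in WT. It stood at 189 CPM (177 to 201) in neutrophil progenitors and 10.97 CPM (7.23 to 15.96) in stem and multipotent cells. In monocyte progenitors it stood at 1.04 CPM (0.554 to 1.78) and in erythroid cells at 0.779 CPM (0.462 to 1.23), which overlap within counting error. In the main WT erythroid cluster alone S100a9 stood at 0.304 CPM (0.122 to 0.627) from 7 UMIs. The share of S100a8 among the UMIs of the pair was 87.6% (86.9 to 88.4) in WT neutrophil progenitors, 97.3% (95.5 to 98.6) in monocyte progenitors and 65.4% (53.8 to 75.8) in stem cells. Among these classes the mix of calprotectin transcripts was thus most tilted to S100a8 in monocyte progenitors, from 13 S100a9 UMIs. Basophil and mast cells, with 9 S100a8 UMIs and 1 S100a9 UMI, stood at 90% (55.5 to 99.7), which overlaps the monocyte interval.

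Lcn2 and Fcnb were also found in WT monocyte progenitors. WT Lcn2 stood at 24.0 CPM (19.8 to 28.8) in neutrophil and 12.2 CPM (10.4 to 14.3) in monocyte progenitors, and the larger monocyte class held 153 of its 309 UMIs. Basophil and mast cells held Lcn2 at 8.58 CPM (4.11 to 15.8) from 10 UMIs, which overlaps the monocyte interval. WT Fcnb stood at 21.7 CPM (17.8 to 26.3) and 2.80 CPM (1.95 to 3.90). Both were at 0 UMIs in 489 WT stem and multipotent cells, which allows a share of cells with a UMI of up to 0.613%. Camp had 28 of its 41 WT UMIs in neutrophil progenitors and Ngp 5 of 11, while neither of the 2 Ltf UMIs of WT lay there.

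**Figure D3:**
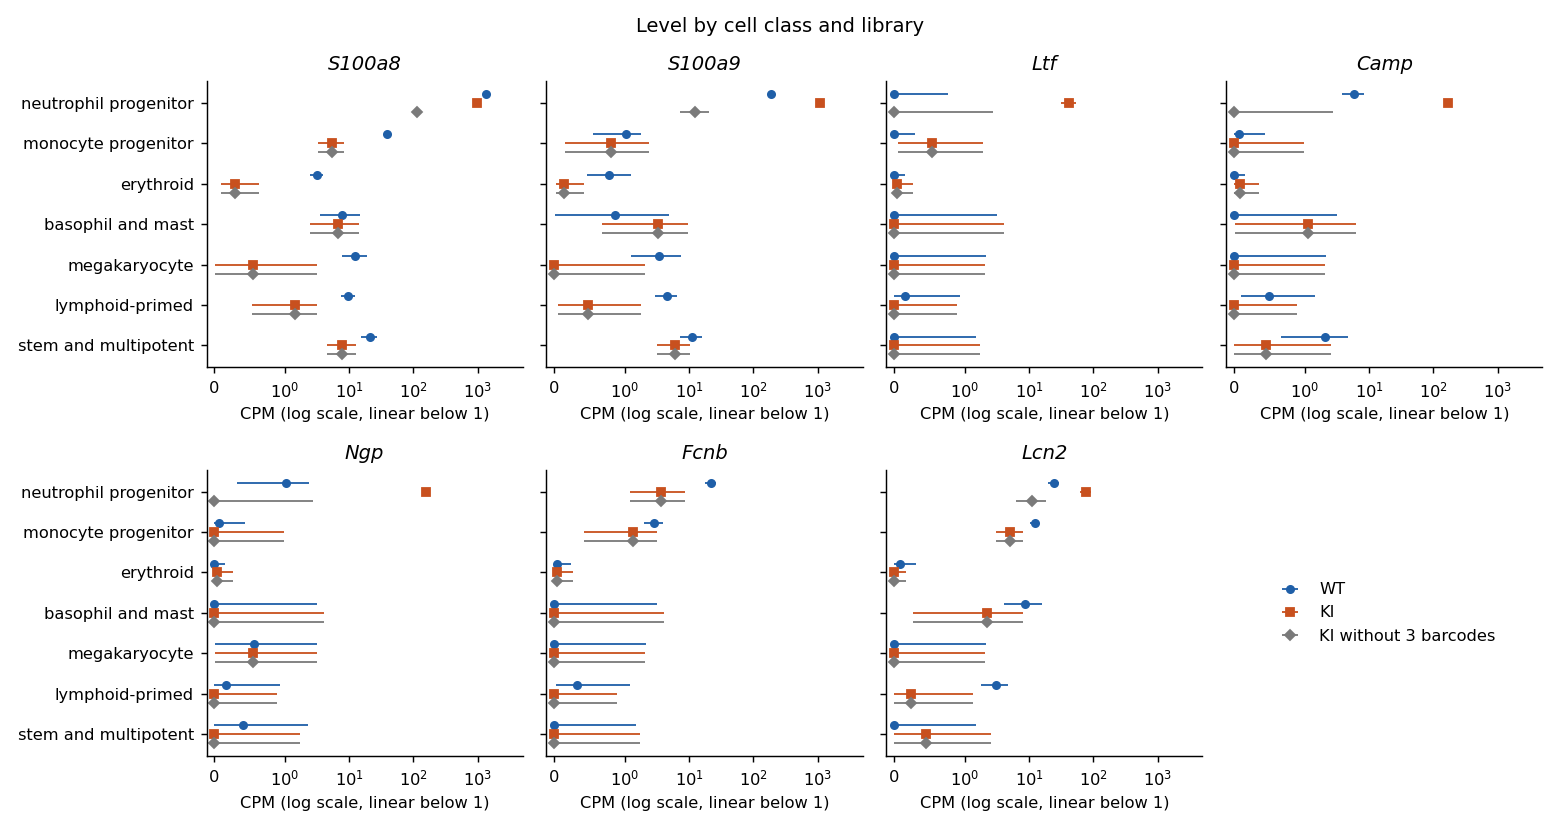
CPM of each gene (horizontal, log scale, linear below 1) in 7 cell classes for WT, KI and KI without the 3 barcodes, with 95% Poisson intervals. WT S100a8 falls from 1336 CPM in neutrophil progenitors to 3.12 CPM in erythroid cells, and the KI points for Ltf, Camp and Ngp in neutrophil progenitors go to 0 without the 3 barcodes.

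Onset within the neutrophil progenitor class was read along a line from the stem to the neutrophil centre in principal components made without these genes. Cells were divided at the quartiles of the WT positions into 4 zones, from the stem side (zone 1) to the far end (zone 4), with 115, 115, 115 and 116 WT cells. WT S100a8 stood at 61.7, 318, 722 and 4968 CPM. WT S100a9 stood at 7.09, 29.3, 19.3 and 816 CPM. S100a8 was thus higher at each step, and S100a9 stood apart in the last zone.

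Fcnb in WT stood at 0, 4.88, 10.1 and 84.5 CPM, and Camp at 0.709, 0.814, 2.51 and 22.1 CPM, the latter from 1, 1, 3 and 23 UMIs. Lcn2 showed no such slope, at 23.4, 23.6, 25.1 and 24.0 CPM. Ngp gave 1, 1, 1 and 2 UMIs, too few to place, and Ltf gave 0. Elane stood at 7653, 13136, 16382 and 20766 CPM and Mpo at 8424, 8533, 8499 and 7709 CPM. S100a8 therefore spanned a far wider range than either primary granule gene.

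In 4 bins of equal cell number, the CPM-weighted mean bin of WT was 2.52 for Lcn2, 3.75 for S100a8, 3.76 for Camp, 3.80 for Fcnb and 3.89 for S100a9. The last bin held 82.0% of the summed CPM of S100a8, 93.7% of S100a9 and 25.2% of Lcn2. S100a8, Camp and Fcnb differ little in this order, and Camp rests on 28 UMIs. In KI without the 3 barcodes the mean bins were 2.59 for Lcn2, 3.74 for S100a8 and 3.76 for S100a9. Lcn2 thus had a lower mean bin than the calprotectin genes in KI as in WT, from 15 KI UMIs. Over the bins it was near level, at 23.4, 23.4, 25.2 and 24.3 CPM in WT and 4, 2, 5 and 4 UMIs in KI. Its mean bin therefore reflects the lack of a slope and gives no onset within the class. KI S100a8 and S100a9, the latter from 17 UMIs, lay too close to be ordered. With the 3 barcodes, which lie at positions 0.90, 0.83 and 0.60 against a KI class median of 0.94, 1 of 6 pairs kept the WT order.

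Detection in the same cells gave a nested order in WT. Of 71 WT cells of the class with S100a9, 67 also held S100a8, whereas of 276 cells with S100a8, 67 held S100a9. Of 55 cells with Fcnb 53 held S100a8, and of 21 cells with Camp 20 held S100a8 and 10 held S100a9. Of 100 cells with Lcn2, 65 held S100a8 and 12 held S100a9, so Lcn2 stood outside the nesting. Counting cells with at least 2 UMIs, 44 of 44 with S100a9 also held S100a8. S100a8 gave the most UMIs of the set, which by itself makes it easier to detect beside the others. In KI without the 3 barcodes, 5 of 7 cells with S100a9 and 2 of 15 cells with Lcn2 held S100a8.

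Between the genotypes, the summed RNA of the neutrophil progenitor class pointed in opposite directions with and without the 3 barcodes. The 7 genes summed to 1577 CPM (1542 to 1613) in WT and 2502 CPM (2418 to 2587) in KI, a log2 ratio of KI over WT of 0.67 (0.61 to 0.72). Without the 3 barcodes KI stood at 140 CPM (121 to 161), a log2 ratio of -3.49 (-3.71 to -3.29). The direction of the sum thus rested on 3 of 140 KI cells.

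At least 2-fold higher in KI were 5 of the 7 genes and at least 2-fold lower 1, where 1.23% and 1.59% of 7378 genes with 50 or more UMIs were higher and lower. Without the 3 barcodes 4 genes had 50 UMIs or more, and 0 were higher and 4 lower, where 1.15% and 1.66% of 7371 genes were. The median log2 ratio of those 4 was -3.06, and over all genes tested it was 0.11. The 3 barcodes were left out by these genes' own share of UMIs, which lowers the KI values of the members they held. The same step took Ltf, Camp and Ngp under 50 UMIs. No other gene was treated so, and the values over all genes are therefore not a like measure for those 4.

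S100a8 stood at 1336 CPM in WT and 971 CPM in KI neutrophil progenitors, a log2 ratio of -0.46 (-0.55 to -0.38). Without the 3 barcodes KI stood at 113 CPM (95.6 to 132) from 153 UMIs, a log2 ratio of -3.57 (-3.81 to -3.34), or 11.9-fold lower. S100a9 stood at 189 and 1080 CPM, a log2 ratio of 2.52, and at 12.5 CPM (7.30 to 20.1) in KI without the 3 barcodes, a log2 ratio of -3.91 (-4.70 to -3.22). The direction of S100a9 turned, and that of S100a8 did not. The S100a8 share of the pair was 47.4% (45.5 to 49.2) in KI. Without the 3 barcodes its interval in KI ran from 84.5% to 94.1%, which holds the WT share of 87.6%.

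Camp had 28 WT and 233 KI UMIs in the class, Ngp 5 and 215, and Ltf 0 and 57. All KI UMIs of the 3 genes came from the same 2 cells, and without them each stood at 0 in 137 KI cells, which allows a share of cells with a UMI of up to 2.19%. For Camp the upper end of the log2 ratio was then -0.98, and for Ngp and Ltf the WT counts were too low for a difference to be detectable. In the last zone of positions, with 23 WT Camp UMIs and 0 in 12 KI cells, the upper end for Camp was 0.79. A Camp difference was thus not detectable at matched positions. Fcnb stood at 21.7 CPM in WT and 3.67 CPM in KI from 106 and 5 UMIs, a log2 ratio of -2.57 (-4.22 to -1.30), and the 3 barcodes added nothing to it. Lcn2 stood at 24.0 and 76.3 CPM, a log2 ratio of 1.67 (1.27 to 2.06), and at 11.1 CPM in KI without the 3 barcodes, a log2 ratio of -1.12 (-2.001 to -0.34).

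**Figure D4:**
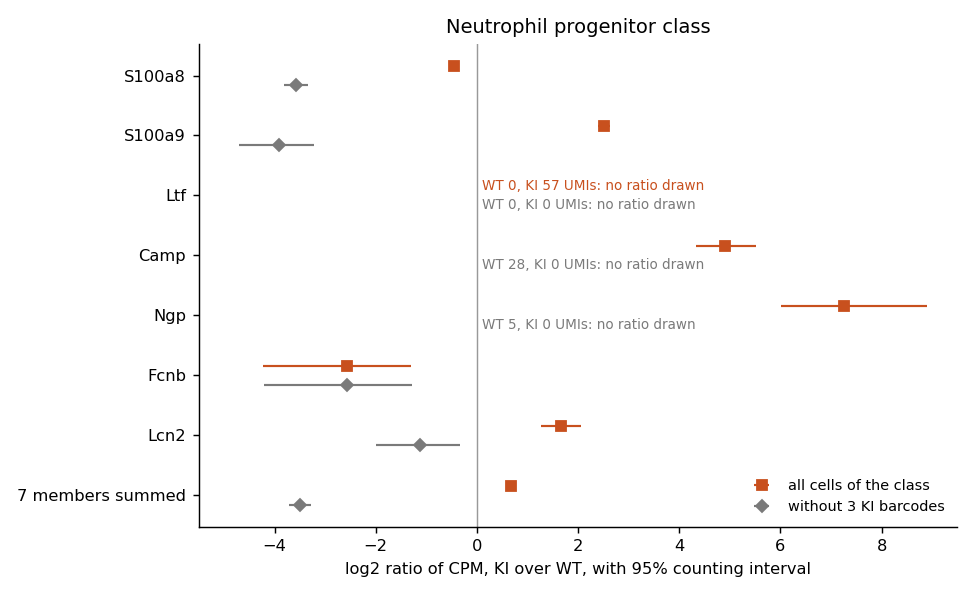
Log2 ratio of CPM, KI over WT, in the neutrophil progenitor class (horizontal) for each gene and for their sum, with 95% counting intervals, over all cells and without the 3 KI barcodes. S100a9, Lcn2 and the sum change sides without the 3 barcodes, while S100a8 and Fcnb lie below 0 in both. Where a library had 0 UMIs the counts are printed instead.

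The KI cells also lay nearer the stem end of the line. Without the 3 barcodes 68, 40, 17 and 12 KI cells fell in zones 1 to 4 of the WT positions. KI S100a8 stood at 19.9, 33.7, 179 and 888 CPM in them, with log2 ratios of -1.63 (-2.59 to -0.78), -3.24 (-4.12 to -2.48), -2.02 (-2.56 to -1.51) and -2.48 (-2.80 to -2.19). S100a8 was thus lower in KI in 4 of 4 zones, by 3.09 to 9.44-fold, a smaller gap in the last zone (5.60-fold) than over the class. A zone spans a range of positions, and in the last zone WT cells reached 1.32 and KI cells 1.24. Over the 100 WT cells of that zone no farther than the farthest KI cell, WT S100a8 stood at 3819 CPM, a log2 ratio of -2.10 (-2.42 to -1.81), or 4.30-fold lower in KI. Zones 3 and 4 rest on few KI cells.

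Elane was close to level in the same zones. Its log2 ratios were -0.04, -0.08, -0.01 and 0.08 in zones 1 to 4. KI S100a9 stood at 1.53, 4.81, 10.8 and 115 CPM, the last with a log2 ratio of -2.83 (-3.79 to -2.02), or -2.18 (-3.14 to -1.36) over positions that both libraries reached. KI Fcnb gave 1, 2, 0 and 2 UMIs, and in zone 4 its log2 ratio was -2.15 (-5.21 to -0.25), or -1.66 (-4.74 to 0.26) over the shared positions, an interval that includes 0. KI Lcn2 gave 5, 7, 3 and 0 UMIs, and its interval lay below 0 in zone 1 alone (-1.61, -3.32 to -0.24).

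**Figure D5:**
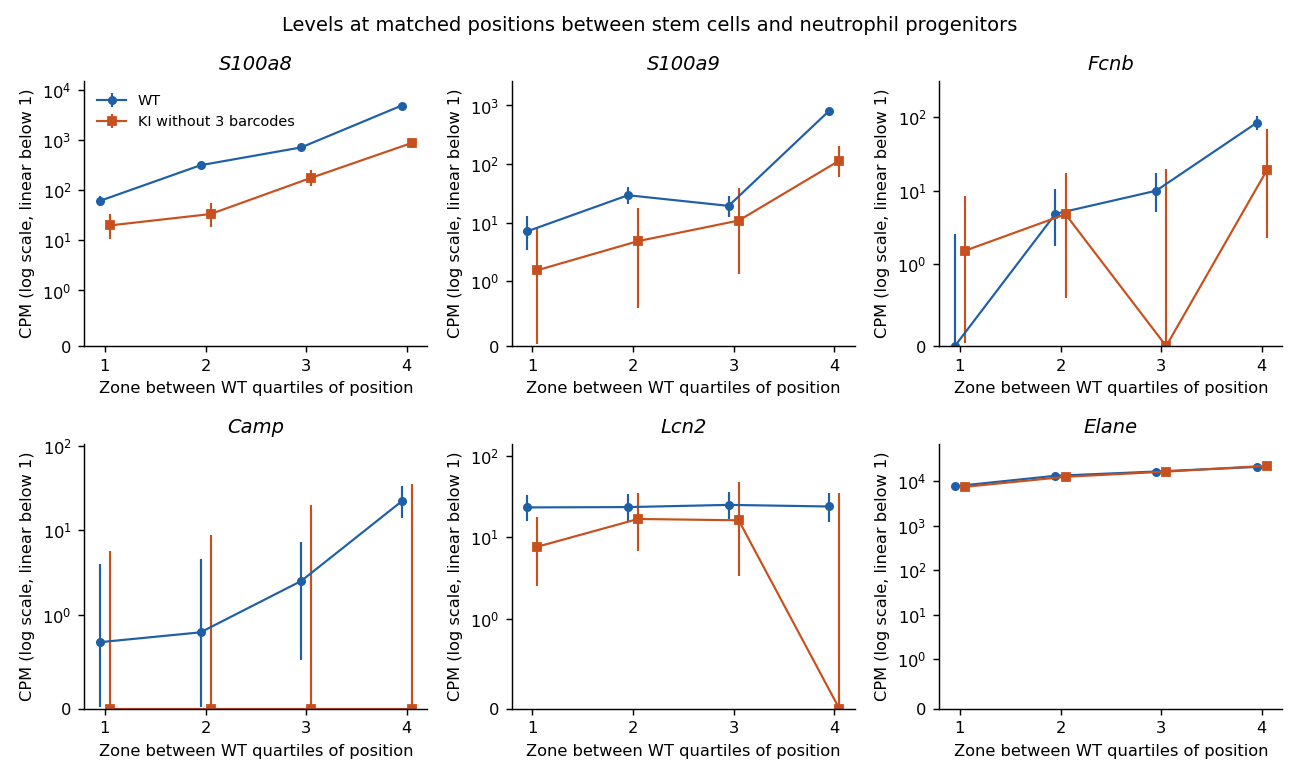
CPM (vertical, log scale, linear below 1) with 95% Poisson intervals in 4 zones of the WT positions between stem cells and neutrophil progenitors, for WT and for KI without the 3 barcodes. S100a8 climbs from 61.7 to 4968 CPM in WT and from 19.9 to 888 CPM in KI, Lcn2 shows no slope in WT, and Elane nearly coincides.

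The share of cells with a UMI gave the same direction. S100a8 was found in 59.9% (55.2 to 64.4) of WT and 27.9% (20.6 to 36.1) of KI neutrophil progenitors, at median depths of 10500 and 9312.5 UMIs. With each cell thinned to 2000 UMIs, leaving out 10 WT and 2 KI cells, the shares were 35.0% (30.6 to 39.6) and 12.3% (7.34 to 19.0). The KI share was 26.3% with the 3 barcodes left out. A separate thinning without them gave 8.82%, so its distance from 12.3% also holds the random draw. Erythroid cells, which should lack the gene, held it in 4.51% of WT and 0.505% of KI cells at 23200 and 17005 UMIs, and thinned in 0.514% and 0.169%. S100a9 was found in 15.4% and 7.14% of neutrophil progenitors, and thinned in 8.20% and 4.35%, with overlapping intervals. Lcn2 was found in 21.7% (18.0 to 25.7) of WT and 12.9% (7.80 to 19.6) of KI cells of the class, or 10.9% (6.26 to 17.4) of KI cells without the 3 barcodes. Thinned, its shares were 5.76% and 5.80%. In a separate thinning without the 3 barcodes they were 4.66% (2.91 to 7.03) and 3.68% (1.204 to 8.37), a difference not detectable at that depth.

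Monocyte progenitors, which held none of the 3 barcodes, showed the same direction for S100a8 and Lcn2. S100a8 stood at 38.2 CPM in WT and 5.32 CPM in KI, from 477 and 20 UMIs, a log2 ratio of -2.84. Lcn2 stood at 12.2 and 5.05 CPM, from 153 and 19 UMIs, a log2 ratio of -1.28. Fcnb gave 35 and 5 UMIs and S100a9 gave 13 and 3. S100a8 was lower in KI erythroid cells too (3.12 and 0.294 CPM, or 1.91 and 0.300 CPM in the main erythroid cluster of each library). The part of free RNA in the monocyte values was not tested.

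Over all cells the sums again depended on the 3 barcodes. S100a8 stood at 113 CPM in WT and 31.9 CPM in KI, a log2 ratio of -1.83, or -4.48 without the 3 barcodes. S100a9 stood at 16.01 and 34.6 CPM, a log2 ratio of 1.11, or -3.67 without them. At least 2-fold higher were 4 of the 7 genes and at least 2-fold lower 2, where 2.25% and 2.97% of 12012 genes were. With the 3 barcodes left out 0 of 4 measured members were higher and 4 lower, where 2.21% and 3.01% of 12008 genes were. That step was chosen by the members' own share of UMIs, so the 2 sides of this count are not alike. These sums also carry the number of neutrophil progenitors, 461 and 140, which the sort can set.

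Other neutrophil genes were read from lists in the same class, without the 3 barcodes. Of 8 measured primary granule genes 0 were 2-fold apart, with a median log2 ratio of -0.02. Elane stood at 13974 and 11303 CPM, Prtn3, another serine protease, at 11756 and 9700 CPM, and Mpo at 8317 and 8578 CPM. Ctsg, cathepsin G, stood at 4097 and 4990 CPM. The primary granule genes thus lay within 0.31 of level on the log2 scale for these 4.

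Of 8 other specific granule genes 1 was 2-fold lower, with a median of -0.39. That gene was Pglyrp1, a peptidoglycan-binding granule protein, at 292 and 110 CPM, a log2 ratio of -1.41 (-1.66 to -1.17). It was lower in KI in 4 of 4 zones (-0.86, -1.15, -1.05 and -1.21). Cyba, a subunit of the oxidase, stood at 432 and 333 CPM, Hp, haptoglobin, at 388 and 287 CPM, and Ltb4r1, a leukotriene receptor, at 128 and 125 CPM. Of 4 tertiary granule and mature neutrophil genes, 1 was 2-fold lower: Slpi, a protease inhibitor, at 210 and 105 CPM. Anxa1 and Csf3r had log2 ratios of -0.20 and -0.55. With the 3 barcodes Retnlg, at 0 and 82 UMIs, joined that list as 2-fold higher.

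Transcription factors of the granulocyte line stood on both sides of level. Of 8 measured 0 were 2-fold apart, with a median of 0.35. Cebpe, the C/EBP factor needed for specific granules, stood at 213 and 312 CPM, a log2 ratio of 0.55 (0.39 to 0.72). Cebpb, another C/EBP factor, stood at 146 and 85.5 CPM, a log2 ratio of -0.77 (-1.06 to -0.48). Cebpd stood at 109 and 98.8 CPM and Spi1, which encodes PU.1, at 217 and 258 CPM. Gata1 gave 11 and 2 UMIs and Gata2 46 and 19 UMIs in the class, with ratio intervals that include 0.

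Of 4 measured other S100 genes 0 were 2-fold apart, with S100a11 at 524 and 522 CPM and S100a10 at 85.3 and 108 CPM. The list of receptors and partners had 1 measured gene, the C-type lectin Cd69, at 52.1 and 50.9 CPM. The relatives had 1, the iron carrier transferrin (Trf), at 38.2 and 46.4 CPM. The log2 ratios of the 4 other S100 genes lay between -0.12 and 0.34, and those of S100a8 and S100a9 were -3.57 and -3.91.

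Genes whose pattern was most like the 7 members summed were ranked by Pearson's r of log2(CPM + 1) over 28 cluster-by-library groups, which share 2 libraries and their depths. Among 11183 genes the highest were Wfdc21 (0.87), Ncam1 (0.85), Mgam (0.84), G0s2 (0.84) and Hsd11b1 (0.84). Mcee, Cldn15, Clec4a2, Chst13 and Gpi1 followed, down to 0.79. Wfdc21 stood at 130 and 22.1 CPM in neutrophil progenitors without the 3 barcodes, a log2 ratio of -2.55 (-3.13 to -2.03). In zones 1 to 4 its log2 ratios were nearer level, at -0.21 (-2.33 to 1.59), -1.21, -1.97 and -1.67. Among the members, r was 0.95 for Ltf with Ngp, 0.93 for Camp with Ngp, 0.86 for S100a8 with S100a9 and 0.34 for Ltf with Fcnb. The value for Ltf with Ngp rests on 1 group, the KI neutrophil progenitors, where Ltf stood at 41.8 CPM and Ngp at 158 CPM from 2 of the 3 barcodes. With the 3 barcodes left out, r was -0.18 for Ltf with Ngp, 0.51 for Camp with Ngp, 0.83 for S100a8 with S100a9 and 0.12 for Ltf with Fcnb. The 10 genes most like the summed members then had r between 0.75 and 0.84 with that sum.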

How the data were processed

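The deposited files hold raw UMI counts by gene and barcode, which Cell Ranger 3.1.0 wrote per the file headers. The build is mm10, per the submitters' processing notes, and the kit is a v2 3′ kit, per the labels. How the authors chose barcodes is not given in the sources used here. The 7 genes and all lists were chosen with earlier results of these data known.

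Kept barcodes had at least 500 genes, at least 1000 UMIs and no more than 10% mitochondrial UMIs. Scrublet (scanpy 1.11.5) called 2.59% of WT cells doublets. It called 0.0692% of KI cells, under the minimum of 0.5%, so the top 5% of KI scores were removed. Both libraries were clustered together (2000 variable genes, 30 principal components, 15 neighbours, Leiden resolution 1), leaving out the 7 genes and the neutrophil lists. Clusters were named from listed markers, classes needed 50 cells per library, and unnamed clusters held 1370 WT and 1994 KI cells.

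Summed counts have exact Poisson intervals, shares exact Clopper-Pearson intervals and log2 ratios exact conditional binomial intervals. Where no cell held a UMI, the limit given is 3 cells of the total. Listed genes needed 50 UMIs over both libraries, and a library at 0 was set at 3 UMIs for a ratio. Free RNA was neither estimated nor removed. Named were, per list, up to 4 genes with the most UMIs in the class and genes 2-fold apart with 100 UMIs or more in a library, with the 10 most alike genes, Gata1 and Gata2. Retnlg, Kit, Ly6g, the 4 zones and the 10% limit were chosen after values were seen. The ratio code was tested on simulated data.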

Additional observations from a re-analysis of the deposited data

Results flagged for a closer look

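Some UMIs of the members lay in barcodes that the cell filters or the doublet call removed and that no comparison uses. The 1982 removed WT barcodes held 519 S100a8, 43 S100a9, 6 Camp, 13 Fcnb and 34 Lcn2 UMIs. The 1140 removed KI barcodes held 11 S100a8, 10 S100a9 and 5 Lcn2 UMIs. They were singled out because these counts lie above the 3 UMIs that a count of 0 allows.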

How the results depend on the processing

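No paired analysis was possible because there was 1 library per genotype. Log2 ratios are KI over WT, and "3 barcodes removed", chosen after seeing the data, leaves out barcodes with 10% or more member UMIs. Over all cells the summed ratio was -0.75. It was -0.81 under the looser filter, -3.97 under the stricter filter, -0.84 over all deposited barcodes, -4.13 with 3 barcodes removed, -4.26 without the 10 highest cells per library and 0.39 as the mean of the cells' own CPM. In the same order of stricter filter, 3 barcodes removed and 10 highest cells left out, S100a9 stood at -3.80, -3.67 and -3.03 and Camp at -1.501, -2.21 and -2.31. Ngp stood at -1.18 and -1.31 under the stricter filter and with 3 barcodes removed, and Lcn2 at 0.45 as the mean of the cells' own CPM. In the neutrophil progenitor class the summed ratio was 0.67. It was 0.50 and 0.76 at Leiden resolution 0.6 and 1.6, and 2.27 as the mean of the cells' own CPM. It was -3.21 under the stricter filter, -3.49 with 3 barcodes removed, -4.09 without the 10 highest cells and -2.53 in the last zone of WT positions with 3 barcodes removed, or -2.12 there up to the farthest KI cell, a limit chosen after seeing the data. In the class S100a9 stood at -4.46 under the stricter filter, -3.91 with 3 barcodes removed, -4.51 without the 10 highest cells and -2.83 and -2.18 in the last zone, whole and up to the farthest KI cell. Lcn2 stood at -2.21, -1.12 and -1.69 in the same first 3 settings, Camp at -0.35 and -1.38 in the first 2 with 0 KI UMIs set at 3, and S100a8 at 1.14 as the mean of the cells' own CPM. The stricter filter removes the 3 barcodes, and the mean of the cells' own CPM gives them the weight of any other cell. Cells holding 50% of all member UMIs numbered 15 in WT (23 in the reported values) and 15 in KI (2) under the stricter filter, and 16 in KI with 3 barcodes removed. Pairs in the same order of onset in both libraries were 1 of 6, but 2 with members allowed in clustering, 5 by diffusion pseudotime and 3 of 3 with 3 barcodes removed. Those 3 pairs give no shared onset, because Lcn2 has no slope and KI S100a8 and S100a9 lay too close to be ordered. No stem class was named at Leiden resolution 0.6 or under the stricter filter, so the line could not be drawn there. Of WT cells with S100a9, 94.4% held S100a8, 100% at 2 or more UMIs and 84.6% under the stricter filter. Listed genes at least 2-fold higher numbered 1, but 2 at resolution 0.6 and with members allowed in clustering, 3 with doublets kept, 12 at a minimum of 1 UMI, and 0 under the stricter filter, at 100 UMIs and with 3 barcodes removed. Those 2-fold lower numbered 1, but 2 at resolution 0.6 and 1.6 and with 3 barcodes removed. The thinned S100a8 share was 24.6% in WT and 5.07% in KI at 2 or more UMIs. The correlation of Ltf with Ngp over clusters and libraries went from 0.95 to -0.18 with 3 barcodes removed. The cause of the other shifts was not tested. Low counts limit Ltf and Ngp, which had 0 and 5 UMIs in the WT class and 0 in the KI class outside the 3 barcodes.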
